A study of Mus musculus with 12 samples.

Results

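Keratin-associated proteins are the matrix of the hair shaft. The analysis covers all genes whose symbol starts with Krtap and that have an array row naming them alone, which gave 51 of the 22180 genes measured. Where a gene had several such rows, the row with the highest mean over the 12 arrays stood for it, so that members were chosen by name and rows by mean level. The family itself was selected on earlier results of these arrays, in which its levels differed between groups, so every group comparison below describes values that bore on the choice. Dorsal skin of C57Bl/6 mice was measured on 12 expression arrays, each from a pool of 4 or 5 animals, male and female by the labels. The 6 groups are WT, IL-6KO (labelled as IL-6 knockout, no transgene), and involved and uninvolved skin of mice carrying an IL-17C transgene, either with the IL-6 gene intact (IL-17C+) or labelled as IL-6 knockout (IL-17C+KO). Each group has n = 2 pools, 1 from mice of 10 weeks and 1 from mice of 14 weeks. The label field for skin type gives WT skin as uninvolved but IL-6KO skin as involved, although neither group carries the transgene. The sources used here do not name the promoter that drives the transgene, nor say whether involved and uninvolved pools share mice.

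In the growing hair follicle, cells of the forming shaft first fill with hair keratin filaments and then make keratin-associated proteins, which pack between the filaments and bind them together through disulfide bonds. The family is divided by amino acid content into high-sulfur, ultrahigh-sulfur and glycine-tyrosine proteins, and the family number in a gene's name marks its class. Follicles alternate between growth and rest, and shaft proteins are made during growth. In mice the genes lie in a few clusters of small neighbouring genes. By number, 16 of the 51 genes were high-sulfur (families such as Krtap1, Krtap3 and Krtap14), 17 ultrahigh-sulfur (Krtap4, Krtap5, Krtap9 and Krtap17) and 15 glycine-tyrosine (Krtap6, Krtap7, Krtap8 and Krtap19 to Krtap22). The other 3 genes, Krtap28-13, Krtap31-1 and Krtap31-2, were left without a class. In the RefSeq table of GRCm38.p6, which holds all 51, Krtap16-3 lies among the Krtap19 genes, several of which have older Krtap16 names. Its place in the high-sulfur class therefore rests on its number alone.

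All group names below are labels, and 3 rows that bear on them did not match them plainly. The Il17c row read 4.74 and 4.16 in IL-17C+ uninvolved skin at 10 and 14 weeks, against 4.67 and 4.96 in WT; in IL-6KO skin it read 6.30 and 6.17. If that row reads the transgene, it goes against the labels of IL-6KO and IL-17C+ uninvolved skin, and whether it does was not tested. Il6 read 4.93 and 5.00 in IL-17C+KO uninvolved skin, the highest levels of all although that group is labelled as IL-6 knockout, against 2.92 and 2.88 in WT skin; IL-6KO skin read 2.68 and 2.79. Where the Il6 row lies relative to the deletion was not tested. Xist, which is transcribed in female cells, read 4.15 in the WT pool of 10 weeks, near that array's median of 4.23, but 9.22 in the WT pool of 14 weeks and 5.55 to 9.76 elsewhere. The sex mix thus differed between pools, 1 of the 2 WT arrays in every WT comparison shows no female signal above the array median, and the part of sex in the Krtap results was not tested. The comparisons with WT are given without each WT array below. Array medians, taken over all rows including those that name no gene, lay between 3.97 and 4.23 (log2 intensity, the scale of all levels here). A level near or below them may be background, which makes the size of a difference uncertain.

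The promoters of the family share a feature that the choice of genes did not use. RefSeq promoters of GRCm38.p6 were matched for 46 of the 51 genes, and 38 of these (82.6%) hold the TATA box letters TATAAA on the gene's strand within the 250 bases before the start, against 7.59% of the 32851 promoters of the table. Between 40 and 16 bases before the start, the share was 60.9% (28 of 46) against 1.99%. Some of the 46 promoters are much alike, such as those of Krtap31-1 and Krtap31-2 or of Krtap19-1 and Krtap19-2. The shares here and for the motifs below therefore do not count independent cases. The 120 bases before the start are shown for 7 genes. They are a pair of high-sulfur genes with large differences, 1 ultrahigh-sulfur and 3 glycine-tyrosine genes with large differences, and Krtap13, which differed least between groups. Letters run 5′ to 3′ on the gene's strand, all 7 genes are on the minus strand, and capitals mark TATAAA.
Krtap1-5 (chr11:99581017-99581136): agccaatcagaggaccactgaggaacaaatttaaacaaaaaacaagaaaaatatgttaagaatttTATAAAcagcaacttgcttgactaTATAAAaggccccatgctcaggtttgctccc
Krtap3-1 (chr11:99566631-99566750): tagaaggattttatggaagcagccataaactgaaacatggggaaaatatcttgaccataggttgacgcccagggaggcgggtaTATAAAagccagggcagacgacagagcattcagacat
Krtap9-3 (chr11:99598107-99598226): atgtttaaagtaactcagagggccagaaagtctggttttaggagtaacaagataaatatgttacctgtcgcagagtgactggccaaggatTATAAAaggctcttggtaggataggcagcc
Krtap6-5 (chr16:89047900-89048019): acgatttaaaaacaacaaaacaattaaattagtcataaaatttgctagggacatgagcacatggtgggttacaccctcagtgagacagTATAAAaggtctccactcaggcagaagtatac
Krtap8-1 (chr16:89487953-89488072): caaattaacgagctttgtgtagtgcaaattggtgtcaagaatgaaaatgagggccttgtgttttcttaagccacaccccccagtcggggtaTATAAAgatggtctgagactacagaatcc
Krtap19-1 (chr16:88869411-88869530): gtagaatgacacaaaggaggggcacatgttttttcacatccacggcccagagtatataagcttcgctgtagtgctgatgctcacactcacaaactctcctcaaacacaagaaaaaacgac
Krtap13 (chr16:88751629-88751748): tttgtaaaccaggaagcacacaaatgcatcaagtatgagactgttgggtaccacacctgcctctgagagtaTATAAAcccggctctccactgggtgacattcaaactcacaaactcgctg

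Krtap13 holds the letters, though outside the narrower window above. Its row read below the array median on every array, so its small differences between groups may reflect background. Krtap19-1, with the largest distance between group means, does not hold the letters in the 120 bases shown. The motif of the hair transcription factor HOXC13 was searched on both strands as TTAATNAA, TTAATNAG, TTAATNGA, TTAATNGG, TTTATNAA, TTTATNAG, TTTATNGA and TTTATNGG. It matched 23 of the 46 promoters (50%), against 17.2% of all. Some of these letters overlap a TATA box, and without matches that touch TATAAA or its reverse the shares were 45.7% and 14.6%. The LEF1 motif, searched as CTTTGAA and CTTTGTT on both strands, matched 11 of 46 (23.9%) against 9.17%. These are matches of letters and show no binding.

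Across the 6 groups the family moved as a block. The median level of the 51 genes was 4.49 in WT at 10 weeks and 4.62 at 14 weeks. IL-6KO skin gave medians of 7.14 and 7.97. Uninvolved and involved IL-17C+ skin gave 6.49 and 8.25, and 6.89 and 6.04, respectively. For IL-17C+KO uninvolved skin the medians were 6.87 and 6.98. In IL-17C+KO involved skin it was 3.47 and 5.20. The low groups were thus WT and IL-17C+KO involved skin, and the array of the latter at 10 weeks was the lowest of all. The number of Krtap genes above the array median was 31 and 33 in WT, 17 and 37 in IL-17C+KO involved skin, and between 44 and 50 on the other 8 arrays. The share of all genes above it was not counted by array. In whole skin, fewer follicle cells that make these RNAs and less RNA per such cell cannot be told apart.

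**Figure D1:**
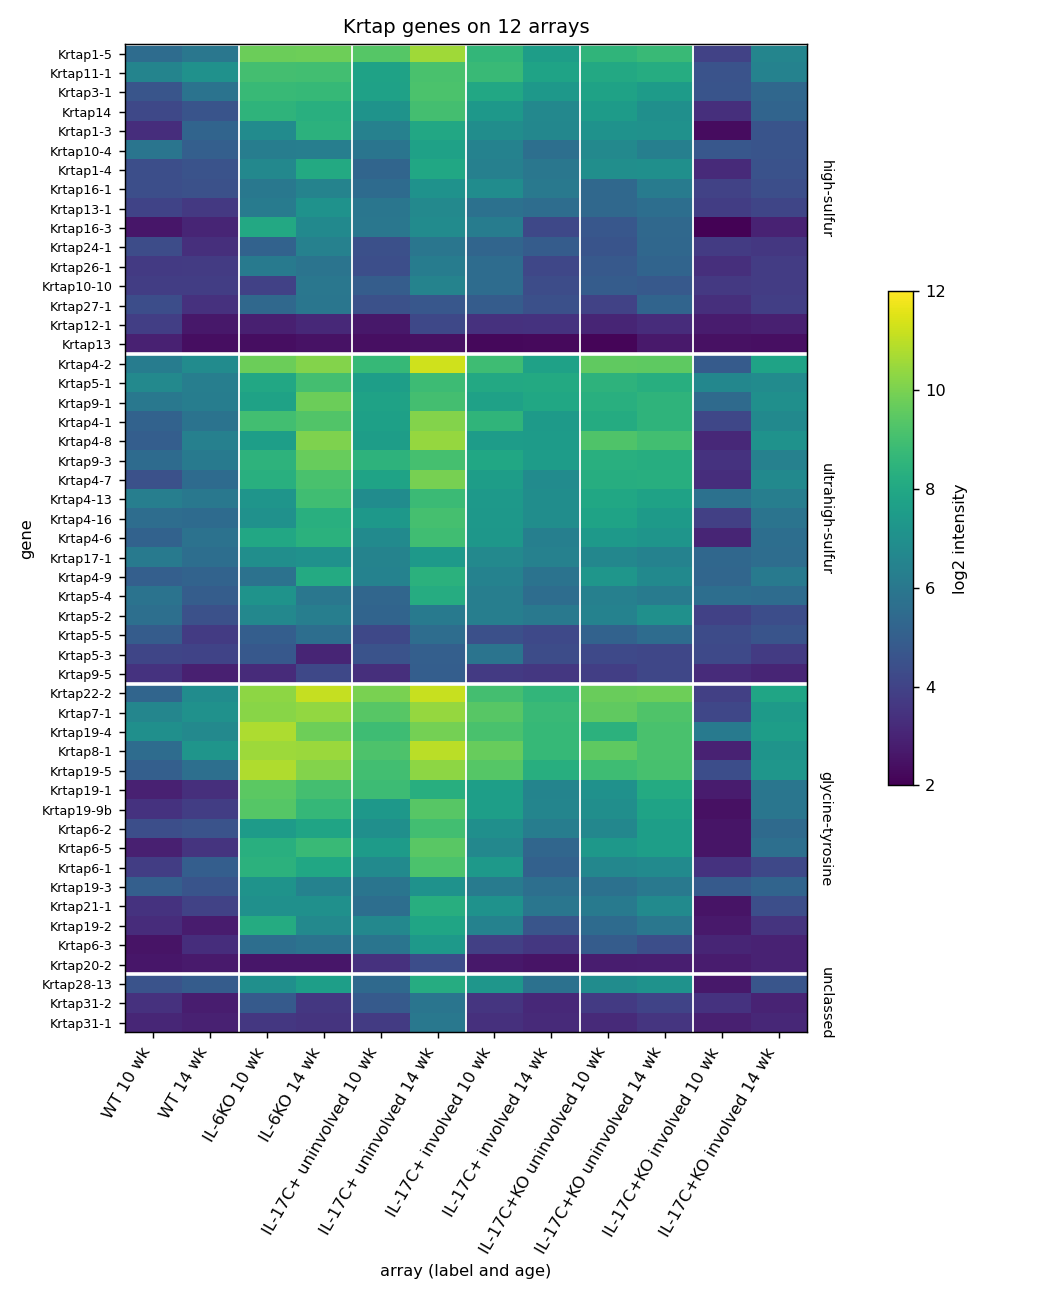
Log2 intensity (colour) of the 51 Krtap genes (rows, by class and then by mean level) on the 12 arrays (columns, by label and age). Both WT columns and both IL-17C+KO involved columns are dark, the 10-week IL-17C+KO involved array having a median of 3.47, while Krtap13 and Krtap20-2 are dark on nearly every array.

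An F test asks for any difference among the 6 groups without choosing a comparison. With limma and Benjamini-Hochberg adjustment over all genes, 35 of the 51 Krtap genes passed at an adjusted p under 0.05, against 1.76% of the 22180 genes. By class, 14 of 15 glycine-tyrosine, 9 of 16 high-sulfur, 10 of 17 ultrahigh-sulfur and 2 of 3 unclassed genes passed. The highest and the lowest group mean of a Krtap gene lay 3.49 apart at the median, from 0.43 in Krtap13 to 6.10 in Krtap19-1, where the median over all genes was 0.47. Of the 52 genes with a distance over 4 in the whole table, 14 were Krtap genes. Both WT arrays read below all 8 arrays of the 4 higher groups (IL-6KO, both IL-17C+ sites and IL-17C+KO uninvolved) in 40 of the 51 genes, against 2.84% of all genes, and both IL-17C+KO involved arrays in 40, against 1.77%. In 37 of the 51 genes, all 4 arrays of WT and IL-17C+KO involved skin read below those 8, a pattern that 0.473% of all genes had. This pattern was counted after it was seen. IL-17C+KO involved skin had the lowest group mean in 31 of the 51 genes and WT in 17, while the highest group mean was that of IL-6KO skin in 30 and of IL-17C+ uninvolved skin in 14.

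**Figure D2:**
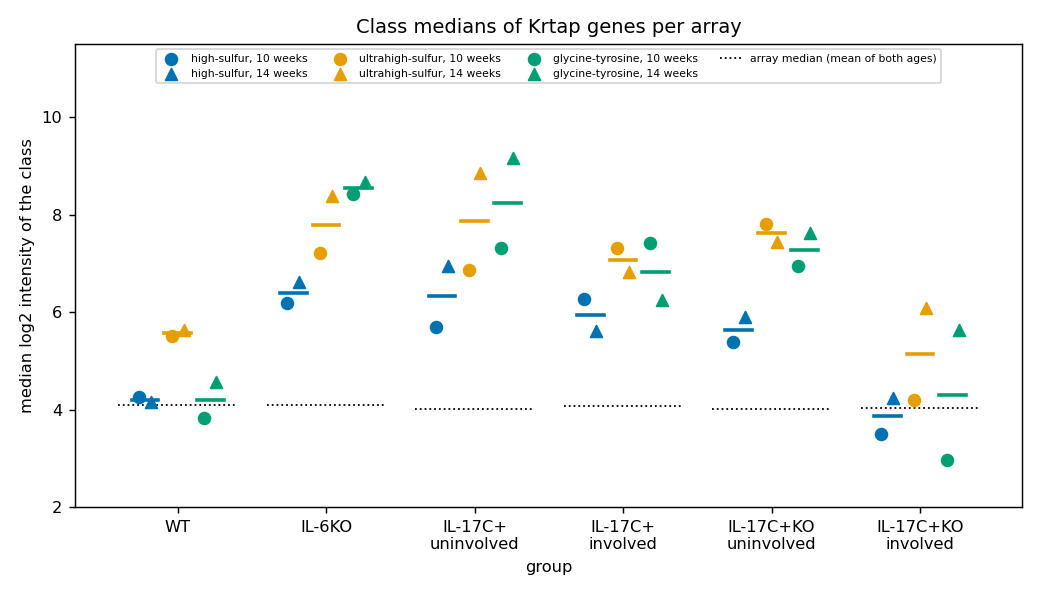
Median log2 intensity of the high-sulfur, ultrahigh-sulfur and glycine-tyrosine genes (colours) on each array (circles 10 weeks, triangles 14 weeks), with the mean of both ages as a bar and the array median as a dotted line. WT and IL-17C+KO involved skin sit lowest in each class, and the glycine-tyrosine median spans the widest range, from 2.97 to 9.16.

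Does skin labelled IL-6KO, without the transgene, differ from WT? There, 25 of the 51 Krtap genes were higher than in WT and 0 lower, against 0.361% of all genes higher, so that Krtap genes made up 25 of the 80 genes that rose. The median difference was 2.74 (log2), against -0.01 over all genes. Of the glycine-tyrosine genes 13 of 15 rose, of the high-sulfur genes 7 of 16 and of the ultrahigh-sulfur genes 5 of 17. Krtap19-1 read 2.93 and 3.35 in WT against 9.47 and 9.02 in IL-6KO skin, a difference of 6.10 ± 0.73 (standard error of limma, n = 2 pools a group, adjusted p = 0.00578). Krtap6-5 read 2.86 and 3.50 against 8.32 and 8.80 (5.37 ± 0.71, adjusted p = 0.00857). In WT both genes read below the array medians, and their groups did not overlap.

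Among genes above the array median on each array of both groups, Krtap19-5 read 5.04 and 5.65 in WT, where the medians were 4.23 and 3.97. In IL-6KO skin it read 10.83 and 10.14 (5.14 ± 0.68, adjusted p = 0.00857). Krtap1-5, a high-sulfur gene, read 5.54 and 5.96 against 9.73 and 9.79 (4.01 ± 0.59, adjusted p = 0.0141). Krtap5-1, an ultrahigh-sulfur gene, read 6.72 and 6.28 against 8.01 and 9.03 (2.02 ± 0.37, adjusted p = 0.038). Krtap19-5, Krtap1-5 and Krtap5-1 thus passed with WT levels above the array medians, and the part of background in the family's differences was not tested. Krtap8-1 differed by 4.14 ± 0.88 (5.53 and 7.23 against 10.54 and 10.50) and did not pass (adjusted p = 0.0683). The count of 25 became 1 and 6 when the WT array of 10 or 14 weeks was left out, and 2 and 5 without the 10- and 14-week IL-6KO array, with medians between 2.39 and 2.84.

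**Figure D3:**
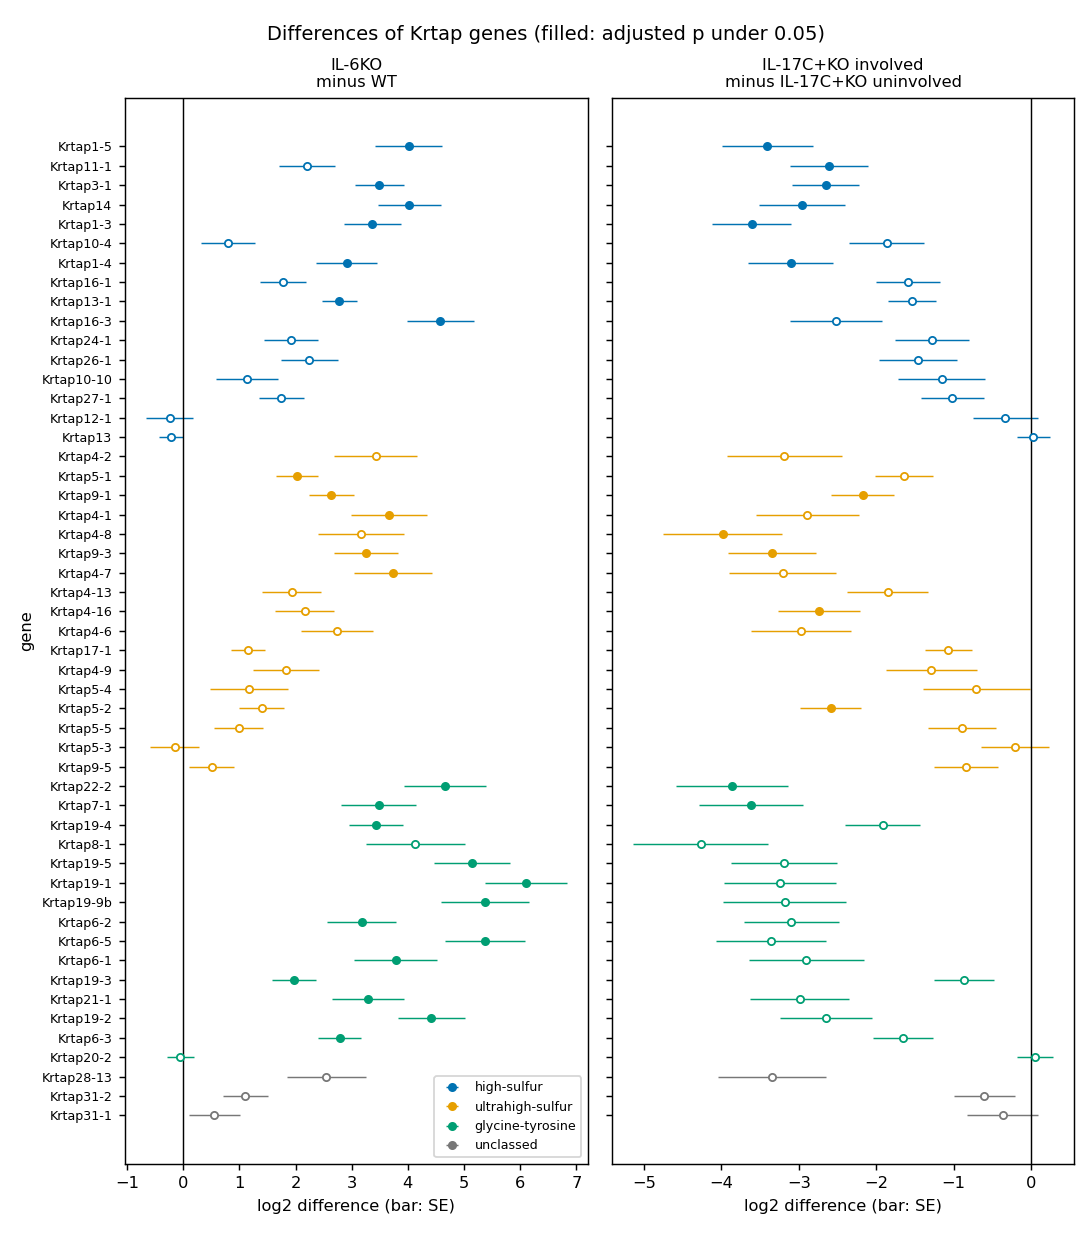
Log2 difference (points) with the standard error of limma (bars) of each Krtap gene for IL-6KO minus WT and for IL-17C+KO involved minus IL-17C+KO uninvolved skin; colours give the class, filled points an adjusted p under 0.05. In the first panel 25 genes passed, all higher, and in the second 13 passed, all lower.

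Does transgenic skin differ from WT? In skin labelled IL-17C+ uninvolved, 8 Krtap genes were higher than in WT, against 0.0541% of all genes, and 12 genes rose in the whole table. The 8 were Krtap1-5, Krtap3-1, Krtap13-1 and Krtap14 of the high-sulfur class and Krtap6-3, Krtap6-5, Krtap19-1 and Krtap19-2 of the glycine-tyrosine class. The family was chosen with results of these arrays known, so that these counts are no independent support. Krtap6-3 read 2.54 and 3.30 in WT and 5.89 and 7.37 in IL-17C+ uninvolved skin, a difference of 3.70 ± 0.38 (adjusted p = 0.0075). Krtap3-1 read 4.63 and 5.79 against 7.72 and 9.15, a difference of 3.22 ± 0.43 with groups that do not overlap (adjusted p = 0.0216). The median difference of the family was 2.40, and 50 of 51 genes were higher in mean. None of the 17 ultrahigh-sulfur genes passed, although their median difference was 2.27. Leaving out the WT array of 10 or 14 weeks gave counts of 0 and 5. The count was 17 and 1 without the 10- and 14-week IL-17C+ uninvolved array, 18 without either IL-17C+ involved array and 20 without either IL-17C+KO involved array.

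In skin labelled IL-17C+ involved, 9 Krtap genes were higher than in WT, against 1.1% of all genes, with a family median of 1.72. Krtap3-1 read 7.98 and 7.34 here, 2.45 ± 0.43 above WT (adjusted p = 0.013). Krtap19-1 read 7.60 and 6.50, 3.91 ± 0.73 above WT (adjusted p = 0.0175). Both were higher than in WT at either age. Krtap1-3, Krtap13-1, Krtap14 and Krtap16-1 of the high-sulfur class and Krtap19-5, Krtap19-9b and Krtap21-1 of the glycine-tyrosine class rose too. The count was 3 and 1 without the 10- and 14-week WT array, 0 without the 10-week IL-17C+ involved array (where the median fell to 0.92), and 21 without either IL-17C+KO involved array.

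In skin labelled IL-17C+KO uninvolved, 17 Krtap genes were higher than in WT, against 1.12% of all genes, with a median of 1.93. They comprised 6 high-sulfur, 4 ultrahigh-sulfur and 7 glycine-tyrosine genes. Krtap19-1 read 7.05 and 8.13, 4.45 ± 0.73 above WT (adjusted p = 0.0105), and Krtap6-5 read 7.32 and 7.62, 4.28 ± 0.71 above WT (adjusted p = 0.0115). The ultrahigh-sulfur genes that passed were Krtap4-7, Krtap4-8, Krtap5-1 and Krtap9-1. The count was 4 and 2 without the 10- and 14-week WT array, 0 and 3 without the 10- and 14-week IL-17C+KO uninvolved array, and 26 without either IL-17C+KO involved array.

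IL-17C+KO involved skin is the exception among the transgenic groups. Against WT, 0 of the 51 Krtap genes passed in limma, where 0.0225% of all genes did, and 2 had an unadjusted p under 0.05. The family median was -0.16, with 18 genes higher and 33 lower in mean, and it was 0.14 without the 10-week and -0.55 without the 14-week IL-17C+KO involved array. The largest differences were those of Krtap8-1 (-1.31 ± 0.88), Krtap11-1 (-1.29 ± 0.50) and Krtap19-1 (1.21 ± 0.73). A p that misses the threshold does not show that this skin is like WT. Both IL-17C+KO involved arrays read below both WT arrays in 6 of 51 genes, a share no larger than the 14.6% over all genes.

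How far does involved skin of IL-17C+KO mice lie from their uninvolved skin and from IL-6KO skin? Against IL-17C+KO uninvolved skin, 13 Krtap genes fell, against 0.478% of all genes, with a family median of -2.59. Krtap1-3 read 7.09 and 7.06 in uninvolved and 2.35 and 4.59 in involved skin, and fell by 3.61 ± 0.51 (adjusted p = 0.00894). Krtap9-3 read 8.31 and 8.23 against 3.46 and 6.39, and fell by 3.35 ± 0.57 (adjusted p = 0.0237). In both genes the involved arrays read lower, and the 10-week array lowest. Krtap22-2 of the glycine-tyrosine class read 9.72 and 9.80 against 3.90 and 7.89 (-3.86 ± 0.73, adjusted p = 0.0373). Krtap8-1 read 9.53 and 9.15 against 2.97 and 7.17 (-4.27 ± 0.88) and did not pass (adjusted p = 0.0596). The 10-week involved levels of Krtap1-3, Krtap9-3, Krtap22-2 and Krtap8-1 lay below that array's median of 4.04, so the sizes of these falls are uncertain. Of the 13 genes, 6 were high-sulfur, 5 ultrahigh-sulfur and 2 glycine-tyrosine, although the glycine-tyrosine median (-3.09) was further from 0 than those of the high-sulfur (-1.73) and ultrahigh-sulfur genes (-2.17).

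This fall leaned on the 10-week array. Without it 0 genes passed and the median was -1.83, and without the 14-week IL-17C+KO involved array 24 passed with a median of -2.86. The count was also 1 without either IL-17C+KO uninvolved array, 8 without the 10-week WT array or either IL-6KO array, and 26 and 22 without either array of IL-17C+ involved and IL-17C+ uninvolved skin. Against IL-6KO skin, 24 Krtap genes were lower in IL-17C+KO involved skin, against 0.171% of all genes, and 38 genes fell in the whole table. The family median was -3.43. Krtap16-3 read 8.03 and 6.74 in IL-6KO and 2.07 and 2.97 in IL-17C+KO involved skin (-4.86 ± 0.59, adjusted p = 0.00868). Both of the latter levels lay below the array medians (4.04 and 4.02), so the size of this difference is uncertain. Leaving out the 10- or 14-week IL-6KO array gave counts of 1 and 0, and 0 genes passed without the 10-week IL-17C+KO involved array (median -2.40).

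**Figure D4:**
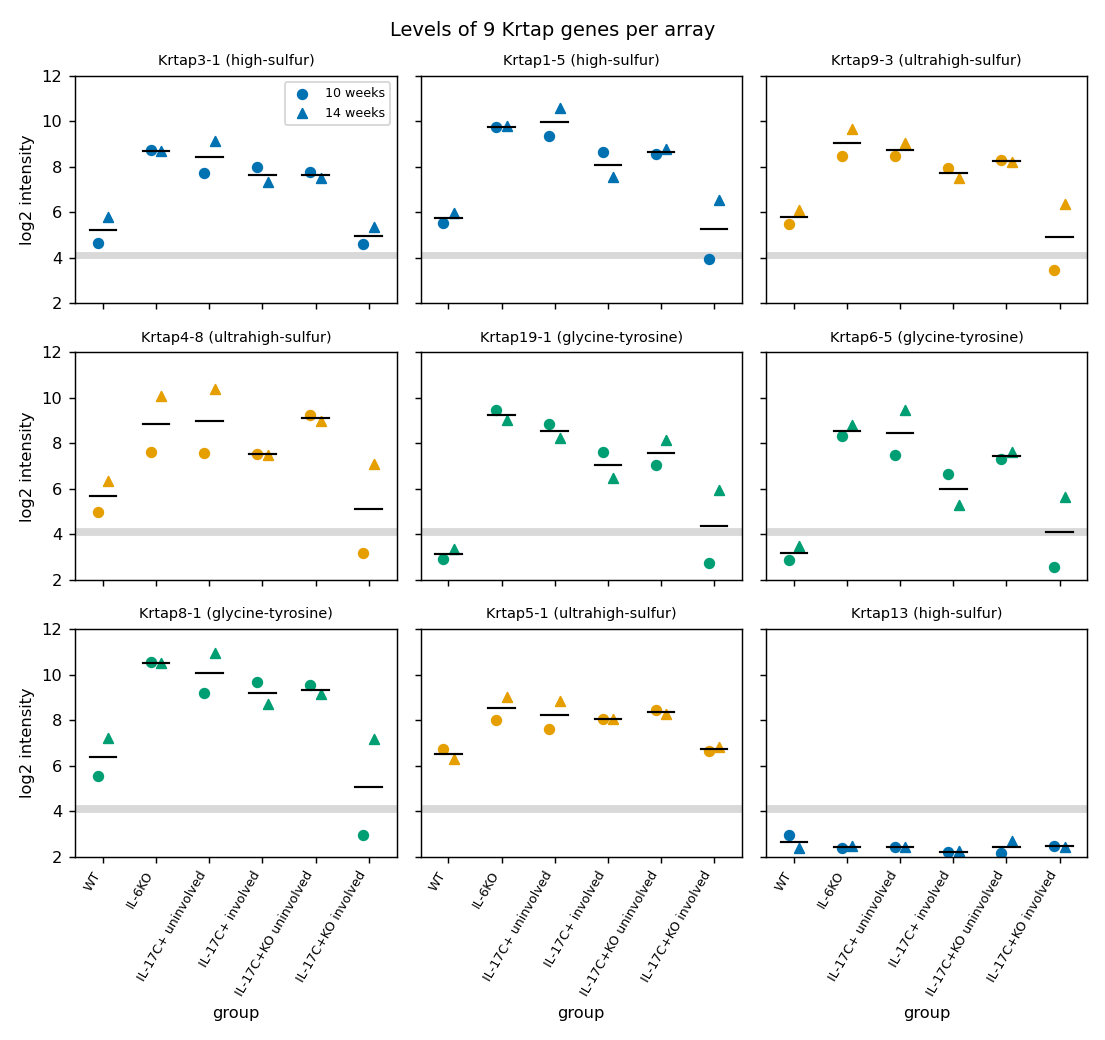
Log2 intensity of 9 Krtap genes on each array (circles 10 weeks, triangles 14 weeks), by group, with the mean of both ages as a bar and the range of the array medians, 3.97 to 4.23, as a grey band. The first 7 genes have their lowest group means in WT and IL-17C+KO involved skin, Krtap5-1 varies less, and Krtap13 stays below the band in every group.

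Do Krtap levels within transgenic skin differ by the IL-6 label? In involved skin, 9 Krtap genes were lower in IL-17C+KO than in IL-17C+, against 0.419% of all genes, with a median of -2.06. They were Krtap1-3, Krtap3-1, Krtap11-1, Krtap13-1, Krtap14 and Krtap16-1 of the high-sulfur class, Krtap5-2 and Krtap9-3 of the ultrahigh-sulfur class, and Krtap7-1 of the glycine-tyrosine class. Krtap11-1 read 8.78 and 7.81 in involved skin of IL-17C+ and 4.56 and 6.43 in that of IL-17C+KO mice, groups that do not overlap (-2.80 ± 0.50, adjusted p = 0.0262). Leaving out the 10-week array of either group gave a count of 0, and the count was 21 without the 14-week IL-17C+KO involved array, 5 without either IL-6KO array and 14 without the 10-week IL-17C+ uninvolved array.

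In uninvolved skin only Krtap6-3 passed, lower in IL-17C+KO (4.91 and 4.40) than in IL-17C+ (5.89 and 7.37), by -1.97 ± 0.38 (adjusted p = 0.0347), where 0.171% of all genes were lower. The family median there was -0.56, and 0.04 without the 14-week IL-17C+ uninvolved array. The call was lost without that array, without either IL-6KO array and without either IL-17C+KO uninvolved array, and 5 genes passed without the 10-week IL-17C+ uninvolved array. Between IL-17C+KO uninvolved and IL-6KO skin, both labelled as IL-6 knockout, 0 of 51 passed in limma, against 0.397% of all genes, with 10 at an unadjusted p under 0.05 and a median of -0.56. The largest difference was that of Krtap16-3, at -2.34 ± 0.59.

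Between involved and uninvolved skin of IL-17C+ mice the differences were smaller. Krtap6-3 read 5.89 and 7.37 in uninvolved and 3.89 and 3.63 in involved skin, and fell by 2.87 ± 0.38 (adjusted p = 0.00276). Krtap20-2 fell by 1.31 ± 0.23 (adjusted p = 0.0141), and Krtap31-2 fell too (adjusted p = 0.0242). These 3 genes of 51 compare with 0.834% of all genes that were lower, and the family median was -0.82. In 17 of the 51 genes both involved arrays read below both uninvolved arrays, against 23.4% of all genes. Leaving out the IL-17C+ involved array of 10 or 14 weeks gave counts of 2 and 0. The count was 6 and 1 without the 10- and 14-week IL-17C+ uninvolved array, and 5 without either IL-17C+KO involved array. The median was -0.16 and -0.21 without the 14-week involved and uninvolved IL-17C+ array, and -1.60 and -1.52 without the 10-week ones. The test of the difference between the genotypes in this site effect called Krtap1-3 (-3.18 ± 0.72, adjusted p = 0.0364) and Krtap5-2 (-3.11 ± 0.56, adjusted p = 0.0104) lower, and Krtap20-2 higher (1.36 ± 0.33, adjusted p = 0.0481). All genes passed this test in 2.58%, and the family median was -1.45. The count of 3 was 0 without the 10-week IL-17C+ involved or the 10-week IL-17C+KO involved array, 1 without either IL-17C+KO uninvolved array, 5 without the 14-week IL-17C+ involved array, 6 without the 14-week IL-17C+ uninvolved array and 10 without the 14-week IL-17C+KO involved array.

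Between 14 and 10 weeks, over all groups, 0 Krtap genes passed in limma, as did 0% of all genes. Unadjusted, 11 Krtap genes had a p under 0.05 in limma, a count without the share of all genes beside it. The family median was 0.42, and the largest difference was that of Krtap4-8 (1.71 ± 0.44, adjusted p = 0.571). Within a group 1 array stands at each age, so the following differences have no test. In IL-17C+ uninvolved skin 50 of the 51 genes read higher at 14 weeks (median 1.49), while in IL-17C+ involved skin 47 read lower (median -0.63). In IL-17C+KO involved skin 43 read higher (median 0.84), led by Krtap8-1 with 4.20, and the median of the glycine-tyrosine genes was 2.88. In IL-6KO skin the classes parted, with 14 of 17 ultrahigh-sulfur genes higher at 14 weeks (median 0.83, Krtap4-8 with 2.46) but 7 of 15 glycine-tyrosine genes (median -0.04, Krtap19-2 with -1.43). WT and IL-17C+KO uninvolved skin had medians of 0.15 and 0.21. Over all genes, the medians by group lay between -0.02 (IL-17C+KO involved) and 0.03 (WT).

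By class number, glycine-tyrosine genes showed the larger differences. Their median for IL-6KO minus WT was 3.78, against 2.23 for high-sulfur and 2.02 for ultrahigh-sulfur genes. For IL-17C+ uninvolved minus WT the medians were 3.69, 1.87 and 2.27, for IL-17C+ involved minus WT 2.53, 1.60 and 1.34, and for IL-17C+KO uninvolved minus WT 2.73, 1.33 and 1.87. These comparisons share the WT arrays, so they do not repeat each other. For IL-17C+KO involved minus IL-6KO skin, which shares both IL-6KO arrays with the first of these, the medians were -4.39, -2.55 and -2.33. Without Krtap16-3 the high-sulfur medians for IL-6KO minus WT and for IL-17C+KO involved minus IL-6KO were 2.20 and -2.42. Glycine-tyrosine medians also varied most within groups. The pooled within-group standard deviation of the array medians was 1.04 for them, 0.50 for high-sulfur and 0.88 for ultrahigh-sulfur genes. In WT the glycine-tyrosine median was 3.83 and 4.56, near the array medians. Members of a class are not replicates, and these class differences were not tested.

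Family and position divided the classes further. The 5 Krtap5 genes, neighbours on chromosome 7, had a median difference of 1.17 for IL-6KO minus WT, against 2.95 for the 8 Krtap4 genes and 2.64 for the 3 Krtap9 genes of the same class on chromosome 11. The 6 Krtap19 genes on chromosome 16 had the median 4.78, and all 6 rose. The 4 Krtap6 genes nearby all rose as well, with a median of 3.48. Taking genes by chromosome of GRCm38.p6, the median was 3.44 for 23 genes on chromosome 16, 2.74 for 19 on chromosome 11 and 0.80 for 3 on chromosome 10. Class and chromosome overlap, since all 15 glycine-tyrosine genes lie on chromosome 16. Genes of the Krtap4, Krtap5 and Krtap9 families are similar in sequence, and how far their rows cross-hybridise was not tested.

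The pattern of 4 low arrays was absent in 14 members, some bright and some dim. Krtap4-2, Krtap4-9 and Krtap6-5 missed it through the 14-week IL-17C+KO involved array, which read above the 14-week IL-17C+ involved array (7.82 against 7.72, 6.09 against 5.82, and 5.64 against 5.30). Krtap5-2 missed it because WT at 10 weeks read 5.67, above IL-17C+ uninvolved skin at 10 weeks (5.23). The others were Krtap5-3, Krtap5-4, Krtap5-5, Krtap9-5, Krtap10-4, Krtap12-1, Krtap13, Krtap20-2, Krtap27-1 and Krtap31-2. Krtap13 was above the array median on 0 of 12 arrays (2.14 to 2.94). Krtap20-2 lay between 2.52 and 4.36 and was highest at 14 weeks in IL-17C+ uninvolved skin. Krtap12-1 ranged from 2.64 to 4.17. Krtap13, Krtap20-2, Krtap12-1 and Krtap5-3, which ranged from 3.02 to 5.84, were the members with a difference below 0 for IL-6KO minus WT (-0.22, -0.05, -0.24 and -0.15 in that order), none of which passed. Krtap5-5, the ultrahigh-sulfur gene with the smallest distance between group means, read 4.90 and 3.74 in WT against 4.99 and 5.63 in IL-6KO skin, groups that do not overlap although the 10-week arrays are close. In all, 47 of the 51 genes exceeded the array median on at least 2 arrays, as did 14363 of all 22180 genes. On all 12 arrays 15 of the 51 did, a count without the share of all genes beside it.

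A further 10 rows name a Krtap gene together with other genes and were not tested. The row shared by Krtap15 and 4930553J12Rik had a group mean of 6.06 in WT and 5.82 in IL-17C+KO involved skin. Its other group means were 10.61 (IL-6KO), 9.98 (IL-17C+ uninvolved), 9.03 (IL-17C+ involved) and 9.48 (IL-17C+KO uninvolved). Both rows shared by Krtap3-2 and Krtap3-3 read lower in WT (5.09 and 4.55) and IL-17C+KO involved skin (4.23 and 5.36) than in IL-6KO skin (8.62 and 8.14). In each of the 10 rows WT and IL-17C+KO involved skin had the lowest means.

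Other hair genes, from lists written with earlier results of these data known, moved with the family to different extents. Hair shaft keratins, the filament proteins that keratin-associated proteins bind, had 6 of 15 genes higher in IL-6KO than in WT (median 2.03), against 0.361% of all genes. Krt33a, a type I hair keratin, rose by 2.94 ± 0.37 (adjusted p = 0.00836), and Krt86, a type II hair keratin, by 2.98 ± 0.54 (adjusted p = 0.0376). In IL-17C+KO involved against IL-6KO skin 4 of 15 fell (median -1.88), against 0.171% of all genes, Krt33a by 3.18 ± 0.37. Against WT, Krt33a was the only one of 15 higher in uninvolved (2.64 ± 0.37) and involved IL-17C+ skin (1.70 ± 0.37), and it rose with Krt86 in IL-17C+KO uninvolved skin. Of all genes, 0.0541%, 1.1% and 1.12% were higher than WT in these groups, in that order. Genes for crosslinking and assembly of the shaft had 4 of 11 higher in IL-6KO skin, against 0.361% of all genes. Among them were Tgm3, a transglutaminase (2.29 ± 0.36), and Tchhl1 (2.86 ± 0.52). In IL-17C+ involved skin 5 of 11 rose over WT, against 1.1% of all genes, including Lrrc15 (2.37 ± 0.42), Tgm3 (2.10 ± 0.36) and Tgm1 (1.58 ± 0.32). In IL-17C+KO involved skin, where Krtap levels were low, Tgm1 and Tgm3 read above WT in mean, without passing. Which cells of whole skin gave the Tgm1 and Tgm3 signal was not tested. Against IL-6KO skin Tgm1 and Tgm3 differed in IL-17C+KO involved skin by 0.08 ± 0.32 and -0.89 ± 0.36, neither of which passed. Lrrc15 and Tchhl1 were lower in that comparison and passed (-2.44 ± 0.42 and -3.17 ± 0.52).

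Genes of the inner root sheath and companion layer, which surround and mould the shaft, had 0 of 10 past the threshold in any of the 13 comparisons in limma, although their median for IL-6KO minus WT was 2.32 and 8 had an unadjusted p under 0.05 there. Their list mean was 4.21 in IL-17C+KO involved skin at 10 weeks and 6.84 at 14 weeks, against 6.30 to 9.34 on the other 10 arrays. Regulators of shaft differentiation moved less. Hoxc13, a homeobox factor needed for hair shaft formation, differed by 0.71 ± 0.24 between IL-17C+ uninvolved skin and WT and by -0.95 ± 0.24 between IL-17C+KO involved and IL-6KO skin, and Foxn1, a follicle factor, by 0.82 ± 0.26 between IL-6KO skin and WT, none of which passed. Of the 26 regulators measured, 0 passed in limma for IL-6KO minus WT (median 0.24, 5 at an unadjusted p under 0.05). For IL-17C+KO uninvolved minus WT 1 passed, the growth factor gene Fgf7 at 1.32 ± 0.28, where 1.12% of all genes were higher. Between IL-17C+ involved and uninvolved skin 2 of 26 passed, both lower, against 0.834% of all genes lower. They were Bmp2 (-1.69 ± 0.35) and Bmp4 (-1.85 ± 0.37), which encode bone morphogenetic proteins.

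Some genes of the follicle bulge and its stem cells, the resting store from which follicles regrow, moved the other way. Of 10 genes, 3 were lower in IL-6KO skin than in WT, the bulge keratin gene Krt15 (-2.35 ± 0.43, adjusted p = 0.0376 in limma), the surface marker gene Cd34 (-1.52 ± 0.29) and the growth factor gene Fgf18 (-1.50 ± 0.26). The other genes did not pass there, and Itga6 and Tcf3 read slightly higher (0.02 ± 0.28 and 0.18 ± 0.25). Krt15, Cd34 and Fgf18 were also the 3 called lower against WT in IL-17C+ involved (Krt15 by -3.13 ± 0.43) and in IL-17C+KO uninvolved skin (Krt15 by -2.84 ± 0.43). These comparisons share the WT arrays, and the share of all genes called lower is not given beside these counts. Against WT, 0 of 10 passed in limma in IL-17C+ uninvolved skin, with 0 at an unadjusted p under 0.05, and 0 in IL-17C+KO involved skin, with 5. The list mean was 7.46 and 7.70 in WT and 7.71 and 7.53 in IL-17C+ uninvolved skin, 7.25 and 6.67 in IL-17C+KO involved skin, and 6.49 to 6.80 on the other 6 arrays. Krtap levels were thus high both where this list was low and, in IL-17C+ uninvolved skin, where it was as high as in WT, and the part of this cell population in the Krtap results was not tested.

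**Figure D5:**
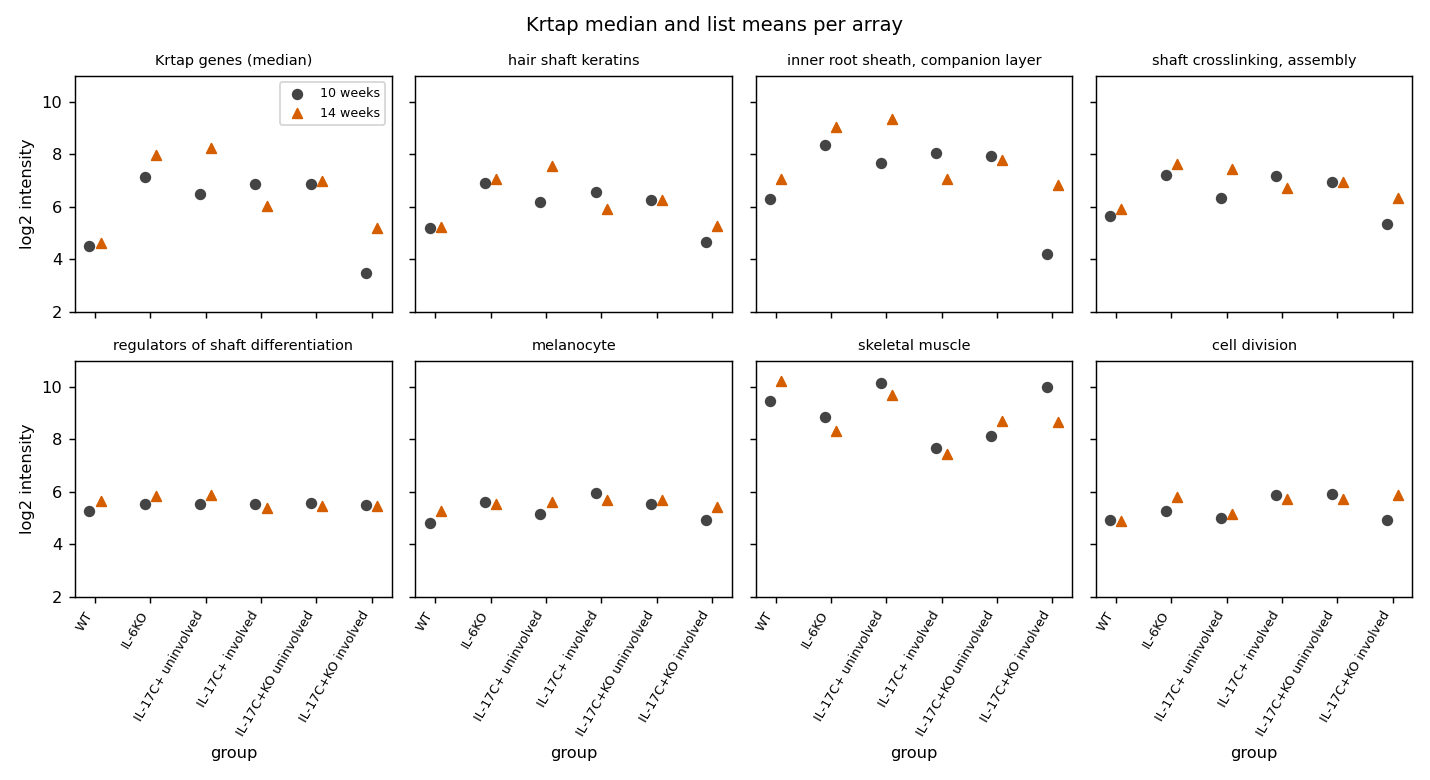
Median log2 intensity of the Krtap genes and mean log2 intensity of 7 gene lists on each array (circles 10 weeks, triangles 14 weeks), by group. Hair shaft keratins and inner root sheath genes are lowest at 10 weeks in IL-17C+KO involved skin (4.64 and 4.21), regulators of shaft differentiation stay between 5.25 and 5.89, and skeletal muscle genes run from 7.43 to 10.24.

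Markers of other tissue layers also differed between the pools. The mean of the 23 skeletal muscle genes was 9.47 and 10.24 in WT and 10.16 and 9.70 in IL-17C+ uninvolved skin. IL-6KO skin read 8.84 and 8.32, and IL-17C+ involved skin 7.67 and 7.43. IL-17C+KO skin read 8.13 and 8.70 where uninvolved, and 10.02 and 8.65 where involved. The IL-17C+ uninvolved pools thus had muscle levels like those of WT beside much higher Krtap levels. With the muscle mean as a covariate, 24 Krtap genes rose in IL-17C+ uninvolved skin over WT (median 2.48), but 0 passed in every other comparison. The median for IL-17C+ involved minus WT then went from 1.72 to 0.12, and that of the genotype difference in the site effect from -1.45 to 0.83. Genes of cell division ranged from 4.90 to 5.92 in list mean, being 4.93 and 4.90 in WT and 4.94 and 5.87 in IL-17C+KO involved skin. In IL-17C+ uninvolved skin, where Krtap levels were high, they were 5.00 and 5.14, and the other arrays read 5.27 to 5.92. Melanocyte genes, which also belong to growing follicles, had list means of 4.82 and 5.28 in WT and 4.93 and 5.42 in IL-17C+KO involved skin, against 5.14 to 5.94 elsewhere. Genes of dermal fibroblasts had list means of 9.06 and 8.94 in IL-6KO and 9.14 and 9.35 in IL-17C+KO involved skin, against 9.86 to 10.62 elsewhere. Sebaceous gland genes had list means of 7.36 to 8.47, and of 11 genes Scd3, a fatty acid desaturase gene, was lower than WT in IL-17C+ involved (-2.61 ± 0.43) and IL-17C+KO uninvolved skin (-2.72 ± 0.43), while Elovl3 was higher in the former (2.42 ± 0.50). Interfollicular epidermis genes had list means of 8.80 to 9.94. Of these 8 genes, the keratin gene Krt77 was lower than WT in IL-17C+ involved (-4.22 ± 0.54) and IL-17C+KO uninvolved skin (-3.05 ± 0.54), and Krt14, a basal keratin gene, was higher in the former (1.52 ± 0.30). The muscle mean itself differs between the groups, so the covariate fit cannot separate muscle content from group. The part of these tissue differences in the Krtap results was not tested.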

How the data were processed

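The authors deposited linear array intensities, made with Affymetrix Expression Console and RMA (background correction, normalization between arrays, summary of probes) per the submitters' processing notes, which give no versions here. Values ran from 2.50 to 18385 with array medians of 15.7 to 18.8, and log2 was taken here. Of 41345 rows, 23521 name 1 gene, 1814 several and 16010 none. The highest-mean row stood for each of 22180 genes.

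Groups follow the titles. The model was limma's (version 3.58.1 under R 4.3.3; lmFit, then eBayes with trend; group plus age over all 12 arrays; 5 residual and 7.65 prior degrees of freedom), with Benjamini-Hochberg adjustment over the 22180 genes of each of 13 comparisons and a threshold of 0.05. The procedure was tested on simulated data with independent noise for each gene and no age effect. Differences of age between groups and variation shared by genes, as between Krtap rows, were not simulated, so that test does not cover them. Standard errors are moderated ones. Counts at an unadjusted p under 0.05 in limma are given without the share over all genes and carry no result about the members. P-values measure only the spread between pools that is left after the age term common to all groups. No group has replicate pools of the same age. This spread therefore mixes variation between pools with any age difference that is not shared by the groups, and the fit cannot separate them. The number of arrays limits the precision.

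The members and lists were chosen with earlier results of these data known. Named genes follow a written rule: per class the 3 highest mean levels, the 4 largest and the single smallest distance between group means, up to 10 genes past the threshold per comparison by size, and up to 3 genes against their class in IL-6KO minus WT. From other lists, up to 3 that passed or else the 2 largest differences were eligible. Others (such as Hoxc13, Foxn1, Tgm1, Tgm3, Lrrc15 and members in complete lists of calls) were named after their values were seen. Alternatives were no age block, eBayes without trend, a filter on low genes, quantile normalization, row means, a 1.5-fold minimum, single arrays left out, both pools of 4 mice left out, fits on the compared groups alone, a muscle covariate and a genotype-by-age block.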

Additional observations from a re-analysis of the deposited data

Results flagged for a closer look

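The effect of site (involved minus uninvolved skin) differed between IL-17C+KO and IL-17C+ mice for 3 Krtap genes by limma's test of that difference. It was -3.18 for Krtap1-3, which fell by 3.61 ± 0.51 in IL-17C+KO and differed by -0.43 ± 0.51 in IL-17C+ skin. It was -3.11 for Krtap5-2, with -2.59 ± 0.40 against 0.52 ± 0.40. It was 1.36 for Krtap20-2, with 0.05 ± 0.23 against -1.31 ± 0.23, and this gene lay near or below the array medians.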

How the results depend on the processing

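The direction of the family median held under all alternatives for 10 of 13 comparisons; it turned under at least 1 alternative for IL-17C+KO involved minus WT, IL-17C+KO uninvolved minus IL-17C+ uninvolved and the genotype difference in the site effect. Counts of Krtap genes past the threshold moved far more, and the cause was not tested. The order below is IL-6KO, IL-17C+ uninvolved, IL-17C+ involved and IL-17C+KO uninvolved minus WT (25, 8, 9 and 17 genes), then IL-17C+KO involved minus IL-6KO, IL-17C+KO uninvolved and IL-17C+ involved (24, 13 and 9), IL-17C+KO uninvolved minus IL-17C+ uninvolved (1) and the genotype difference in the site effect (3). With no replicate block (age left out) the counts were 12, 5, 4, 6, 11, 3, 4, 0 and 1. The blocks are ages, since the labels give no replicate numbers. With the replicate block of genotype and age, 2 genes passed for involved minus uninvolved IL-17C+KO skin and 1 for the site effect. Without the trend, counts that moved were 15 (IL-6KO minus WT), 2, 11, 11, 5, 5, 0 and 1 in the same order without IL-17C+ involved minus WT. Quantile normalization gave 2 for IL-17C+ uninvolved minus WT, 8 for IL-17C+KO uninvolved minus WT, and 1, 3 and 0 for IL-17C+KO involved minus IL-6KO, IL-17C+KO involved minus uninvolved and IL-17C+KO uninvolved minus IL-17C+ uninvolved. The filter on low genes gave 14 for IL-17C+ involved minus WT. Without both pools of 4 mice the counts were 2, 0, 5 and 4 against WT, and 1, 5 and 0 for the same last 3 comparisons. Fitting only the groups compared gave 37, 37 and 41 for the transgenic groups minus WT, 11 for IL-17C+KO uninvolved minus IL-6KO (0 in the fit of all arrays), 40 for IL-17C+KO involved minus IL-6KO, 7 for IL-17C+ involved minus uninvolved, 4 for IL-17C+KO uninvolved minus IL-17C+ uninvolved and 19 for IL-17C+KO involved minus IL-17C+ involved. With the muscle covariate 24 genes passed for IL-17C+ uninvolved minus WT and 0 elsewhere, and medians became 1.70 (IL-6KO minus WT), 0.12 (IL-17C+ involved minus WT), 1.11 (IL-17C+KO uninvolved minus WT), -1.91 (IL-17C+ involved minus uninvolved), -0.82 (IL-17C+KO involved minus IL-17C+ involved) and 0.83 (site effect).

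Leaving out single arrays gave counts of 1 to 30 and medians of 2.39 to 2.84 for IL-6KO minus WT, 0 to 20 and 2.02 to 3.11 for IL-17C+ uninvolved minus WT, 0 to 21 and 0.92 to 2.37 for IL-17C+ involved minus WT, and 0 to 26 and 1.74 to 2.33 for IL-17C+KO uninvolved minus WT. It gave 0 to 34 and -3.81 to -2.40 for IL-17C+KO involved minus IL-6KO, 0 to 26 and -2.86 to -1.83 for IL-17C+KO involved minus uninvolved, 0 to 21 and -3.02 to -1.35 for IL-17C+KO involved minus IL-17C+ involved, 0 to 6 and -1.60 to -0.16 for IL-17C+ involved minus uninvolved, 0 to 5 and -1.20 to 0.04 for IL-17C+KO uninvolved minus IL-17C+ uninvolved, and 0 to 10 and -2.32 to -0.72 for the site effect. It gave medians of -0.55 to 0.14 for IL-17C+KO involved minus WT, -0.80 to -0.33 for IL-17C+KO uninvolved minus IL-6KO and 0.19 to 0.70 for age, with 0 genes in each. A group left with 1 array is assumed to vary like the others. Signals near the array medians limit the low genes.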
